A study of Mus musculus with 495 samples.

Results

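Neurog3 (neurogenin 3), a basic helix-loop-helix transcription factor, was followed as 1 row of 23002 genes across 495 single cells of the mouse embryonic pancreas. A cell was taken as Neurog3-positive at 20 CPM or more (CPM is reads of the gene per 1000000 reads counted in that cell), and 212 of the 495 cells (42.8%) were positive, the threshold being set on the level itself. The cells were read with Smart-Seq2, which amplifies whole transcripts from 1 well per cell, and they filled 7 plates. At E17.5 the plates EA06 (57 cells) and EA07 (72 cells), coded Neurog3-cre, came as labelled from mice with the genotype Neurog3-Cre, Rosa-mTmG, in which Cre switches a membrane reporter to GFP. At E15.5 all plates came from Neurog3-eGFP mice, in which eGFP is knocked into the Neurog3 locus. They were EA01 (73 cells) and EA03 (70 cells), coded Neurog3, EA02 (72 cells) and EA05 (85 cells), coded endocrine, and EA04 (66 cells), coded duct. Stage and genotype changed together, so they cannot be told apart, and the sources used here give no sort gate, no animal and no number of Neurog3 alleles. Each group was therefore 1 sample, no test was possible, and every interval below is an exact 95% interval for counting error only.

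Neurog3 is switched on for a short time in progenitors of the pancreatic epithelium that leave the duct-like cords for the endocrine lineage, and mice without it form no islet cells. It binds E boxes (CANNTG) as a dimer with ubiquitous helix-loop-helix partners and turns on other factors, among them Neurod1, Pax4, Insm1 and Nkx2-2. Cells that have passed through this stage take up Fev, then the secretory granule genes and 1 or more hormones, while Notch signals from positive cells keep their neighbours from following.

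The GENCODE M21 annotation of GRCm38 places Neurog3 on the plus strand of chromosome 10 from 62133090 to 62134763. It has a first exon that is noncoding (62133090 to 62133327) and a second (62133462 to 62134763) that holds the whole coding part, 62133463 to 62134104. The annotation gives the neighbouring gene Fam241b exons on the minus strand at 62134489 to 62134761, inside the 3′ UTR of Neurog3, and the method does not mark strand. The row of Fam241b (2010107G23Rik in the table) reached 20 CPM in 100 of 212 Neurog3-positive cells and in 49 of 283 negative cells, and its rho with Neurog3 was 0.68 in plate EA07 but 0.01 in EA06, so reads of the pair cannot be fully told apart. The relatives Neurog1 and Neurog2 had 0 reads in all 495 cells. The 250 bases before the Neurog3 start (RefSeq, GRCm38.p6, chr10:62132840-62133089, plus strand) are shown because the protein reads E boxes and these letters are its own proximal promoter, with the E box in capitals.
Neurog3: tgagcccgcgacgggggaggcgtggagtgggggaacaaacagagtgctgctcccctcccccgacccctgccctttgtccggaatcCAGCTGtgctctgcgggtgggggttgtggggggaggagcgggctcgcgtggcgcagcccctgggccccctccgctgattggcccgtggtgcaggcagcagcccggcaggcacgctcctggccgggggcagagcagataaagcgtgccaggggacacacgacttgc
That window holds 1 E box, CAGCTG, whose first base lies 165 bases before the start, and no CAGATG or CATCTG, the E box kind preferred by neurogenin and NeuroD factors. CACNAG or CTNGTG, the N box bound by Hes repressors, was also not among its letters.

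In the deposited cells, Neurog3 was close to an on or off gene at E15.5 and was graded at E17.5. Of all cells, 265 had 0 reads, 18 had reads but stayed under 20 CPM, and 212 were positive. Of the 18 between, 7 held a single read. The highest of them stood at 17.1 CPM, and the lowest positive cell stood at 20.3 CPM with 18 reads, and the next positive cells at 22.5, 22.5 and 23.9 CPM, so weak cells lay on both sides of the threshold. At E17.5, 33 of 57 cells in EA06 (57.9%) and 44 of 72 in EA07 (61.1%) were positive, 77 in all. At E15.5, 41 of 73 cells in EA01 (56.2%), 44 of 70 in EA03 (62.9%) and 43 of 72 in EA02 (59.7%) were positive, but 7 of 85 in EA05 (8.24%, interval 3.38 to 16.2) and 0 of 66 in EA04. The first 5 of these plates lay within each other's counting error, while EA05 carries the same code as EA02 and was far below it. In the duct plate 1 cell held 4 reads (6.90 CPM), and 0 of 66 allows a share of up to 4.55% (3 cells) or 5.44% (upper end of the exact interval).

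The level within positive cells differed between the E17.5 and E15.5 plates. In E17.5 plate EA06 the lowest, median and highest positive cells had 27.3, 582 and 10062 CPM. In E17.5 plate EA07 they had 20.3, 1068 and 14550 CPM. The E15.5 plates had higher medians and fewer weak cells. Their lowest, median and highest positive cells were at 28.6, 3387 and 10026 CPM in EA01 and at 88.7, 3690 and 10590 CPM in EA03. In EA02 they were at 22.5, 3756 and 8181 CPM, and in EA05, with 7 cells, at 167, 2170 and 6382 CPM. The quartiles of positive cells were 163 and 5637 CPM at E17.5 (a 34.5-fold span) and 1786 and 5198 CPM in EA01 to EA03 (2.91-fold). Positive cells under 200 CPM numbered 23 at E17.5 (29.9%) and 5 in EA01 to EA03 (3.91%), and those at 1000 CPM or more made up 49.4% and 84.4%. The ranges of the stages overlapped, and cells at 5000 CPM or more were found at both, 20 at E17.5 and 34 in EA01 to EA03. Depth was unequal (median 742184 reads per cell at E17.5 and 493429 in EA01 to EA03). With every cell thinned to 200000 reads, 22 of 76 positive cells were under 200 CPM at E17.5 (28.9%), and 5 in EA01 to EA03 (3.91%).

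**Figure D1:**
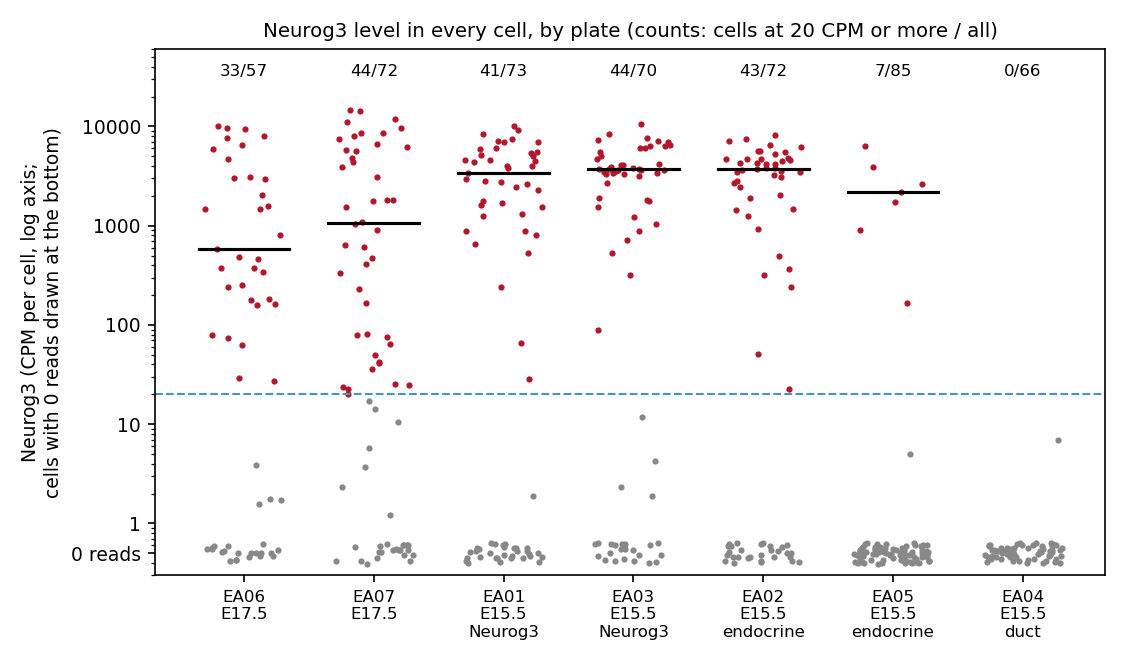
Neurog3 in every cell (points; vertical log axis in CPM, cells with 0 reads drawn spread at the bottom) for the 7 plates, E17.5 at the left. Red points are cells at 20 CPM or more (dashed line), grey points the others, and black bars the medians of red points. Red points spread from 27.3 to 10062 CPM in EA06 (median 582) and from 20.3 to 14550 CPM in EA07 (median 1068). In EA01, EA03 and EA02 most red points sit above 1000 CPM.

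Positive cells were unevenly placed on the E15.5 plates. In EA01 to EA03, wells of rows A, B, E and F held 110 positive cells (80.9% of the cells deposited from these rows, 73.3 to 87.1), rows C and G held 18 of 64 (28.1%, 17.6 to 40.8), and rows D and H held 0 of 15 (upper end 21.8%). The split was present in each of the 3 plates: rows A, B, E and F held 37 of 46 in EA01, 35 of 44 in EA03 and 38 of 46 in EA02, while rows C and G held 4 of 21, 9 of 23 and 5 of 20. At E17.5 the same rows held 39 of 65, 25 of 37 and 13 of 27 cells, shares that overlap in their intervals. Level also differed by row in EA01 to EA03. Positive cells of rows A, B, E and F had quartiles of 2096 and 5285 CPM, with 88.2% at 1000 CPM or more. Those of rows C and G had 667 and 4696 CPM, with 61.1% at 1000 CPM or more. In EA03 alone rows C and G had the higher median, 4048 against 3647 CPM. What the rows were loaded with is not given in the sources used here. The share and level of positive cells in EA01 to EA03 thus describe the deposited cells and not a tissue.

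Reporter reads followed Neurog3 only in part. Cre, read only at E17.5, reached 20 CPM in 61 of 77 Neurog3-positive cells (79.2%) and in 7 of 52 negative cells (13.5%). By level it was found in 16 of 23 cells at 20 to under 200 CPM of Neurog3, 7 of 16 at 200 to under 1000, 18 of 18 at 1000 to under 5000 and 20 of 20 at 5000 CPM or more. Among positive cells its level rose with that of Neurog3 (rho 0.68 in EA06 and 0.78 in EA07). GFP, which marks a cell for good once Cre has acted in this genotype, reached 20 CPM in every E17.5 cell, whether Neurog3 was read or not. At E15.5 it reached 20 CPM in 32 positive cells of EA01 to EA03 and in 13 of 87 negative cells (14.9%), so the knock-in reporter was thinly read in these libraries.

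Hormone genes were read mostly in cells without Neurog3, and in no cell of the highest Neurog3 band. Any of Ins1, Ins2, Gcg, Sst, Ppy and Ghrl at 1000 CPM or more was found in 26 of 212 positive cells (12.3%, 8.17 to 17.45) and in 45.2% of the 283 negative cells. Over rising Neurog3 the positive cells with a hormone were 11 of 29 at 20 to under 200 CPM, 7 of 32 at 200 to under 1000, 8 of 96 at 1000 to under 5000 and 0 of 55 at 5000 CPM or more (3 cells would be 5.45%, upper end 6.49%). At E17.5 the counts in these bands were 9 of 23, 6 of 16, 7 of 18 and 0 of 20, so the share over both plates was 37.5% to 39.1% in the lower 3 bands. The plates were unlike at 200 to under 1000 CPM. All 6 hormone cells of that band were among the 9 cells of EA06, and none was among the 7 of EA07. In EA01 to EA03 they were 2 of 5, 1 of 15, 1 of 74 and 0 of 34. Altogether 22 of 77 positive cells at E17.5 (28.6%) and 4 in EA01 to EA03 (3.12%) had a hormone, against 30 of 52 (57.7%) and 48 of 87 (55.2%) of the negative cells. The 22 hormone cells at E17.5 held 20.3 to 3115 CPM of Neurog3 (median 316), and the 55 positive cells without a hormone held 23.9 to 14550 CPM (median 1789).

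The overlap was uneven between hormones at E17.5, the stage that held most of it. There, of cells at 1000 CPM or more of Ghrl (ghrelin, the hormone of epsilon cells), 15 of 20 were Neurog3-positive (interval 50.9% to 91.3%), with 11 of 14 in EA06 and 4 of 6 in EA07. Sst (somatostatin) cells were positive in 5 of 15 (11.8% to 61.6%) and Ppy (pancreatic polypeptide) cells in 2 of 8 (3.19% to 65.1%). Gcg (glucagon) cells were positive in 0 of 5 (upper end 52.2%), Ins1 cells in 0 of 8 (upper end 36.9%), and Ins2 cells, which read the other mouse insulin gene, in 2 of 13 (1.92% to 45.4%). The interval of Ghrl at E17.5 thus lay above those of Ins1 and Ins2 and overlapped those of Sst, Ppy and Gcg. At E15.5 the order was not the same: plates EA01 to EA03 had 0 of 7 for Ghrl (upper end 40.96%), 0 of 20 for Ins1, 1 of 27 for Ins2, 1 of 10 for Gcg, 1 of 13 for Sst and 2 of 9 for Ppy, with overlapping intervals. In EA05, 0 of 50 hormone cells were positive, the 4 with Ghrl among them. In the 15 positive Ghrl cells Neurog3 ranged over 24.6 to 3115 CPM with a median of 582 CPM. The cell with the most Ghrl among them (38632 CPM, in EA06) had 302 Neurog3 reads, or 582 CPM. Doublets were not called; the 11 such cells of EA06 had a median of 2459 genes read, against 2295 in all cells of that plate, and the 4 of EA07 had 4277 against 3903.

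**Figure D2:**
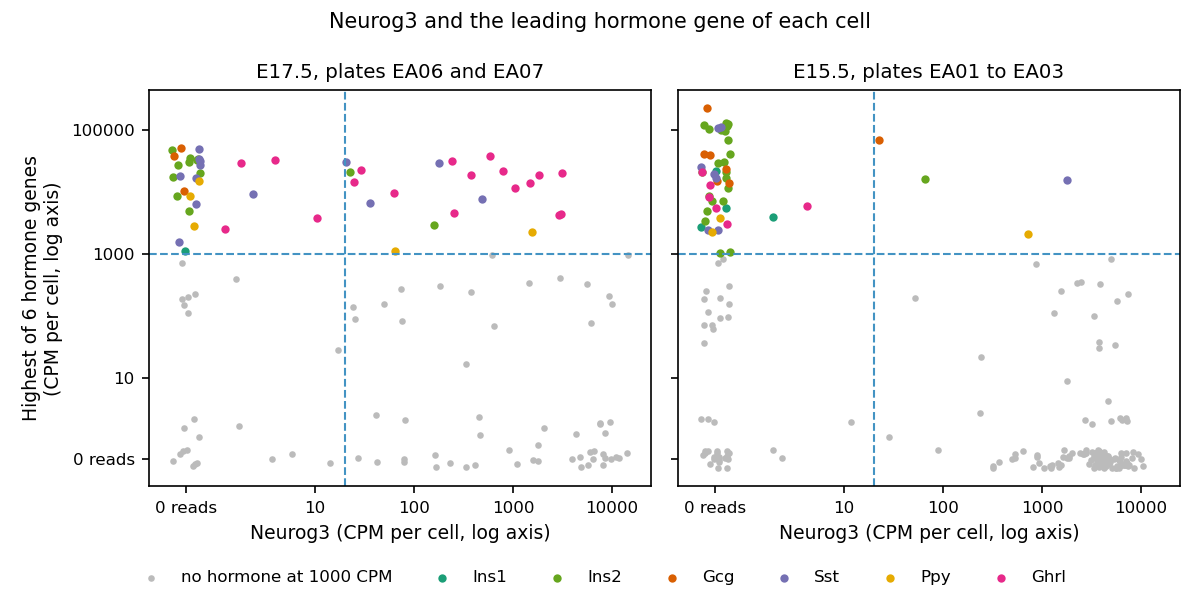
Each point is a cell, with Neurog3 on the horizontal and the highest of 6 hormone genes on the vertical axis (both log axes in CPM; cells with 0 reads are drawn spread at the low end), E17.5 left and E15.5 right. Colours name the leading hormone of cells at 1000 CPM or more; the upper right part holds 22 cells at E17.5, mostly in the colour of Ghrl, and 4 cells in EA01 to EA03.

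Fev, the ETS factor that marks endocrine precursors after Neurog3, was also found at lower Neurog3. At E17.5 it reached 20 CPM in 15 of 23, 6 of 16, 6 of 18 and 4 of 20 cells over the 4 rising bands, and in 23 of 41 cells with 0 Neurog3 reads. Plates EA01 to EA03 had it in 3 of 5, 10 of 15, 5 of 74 and 4 of 34 cells, and in 44 of 82 cells with 0 reads. Cells with neither Fev nor a hormone made up 29 of 77 positive cells at E17.5 (37.7%) and 82.03% of those in EA01 to EA03, against 7 of 52 (13.5%) and 12 of 87 (13.8%) of the negative cells. Most positive cells at E17.5 thus carried a later marker and few did in EA01 to EA03, while the negative cells were alike in this share; the difference between the stages was not tested.

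**Figure D3:**
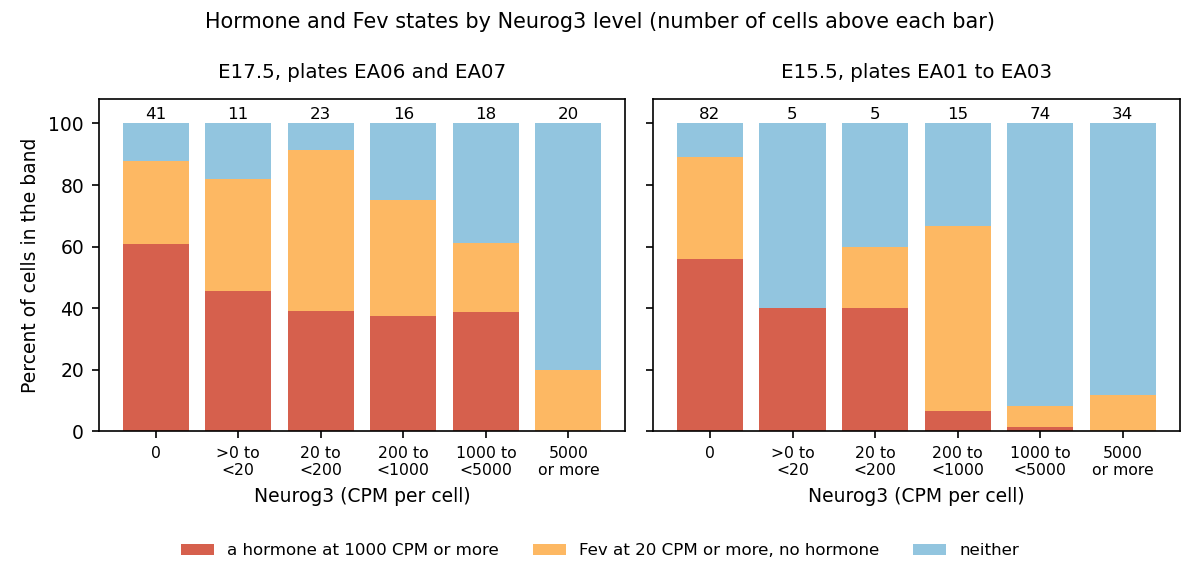
Bars show the percent of cells in each band of Neurog3 (horizontal axis, CPM) with a hormone at 1000 CPM or more, with Fev at 20 CPM or more and no hormone, or with neither; the number of cells stands above each bar, E17.5 left and EA01 to EA03 right. Cells with neither marker fill 16 of 20 cells at 5000 CPM or more at E17.5, and fill most of both bands from 1000 CPM in EA01 to EA03.

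The genes that changed with the Neurog3 level were sought among positive cells alone. Within each plate with at least 15 such cells (33 in EA06, 44 in EA07, 41 in EA01, 44 in EA03 and 43 in EA02, 205 in all), Spearman's rho of each gene's CPM with that of Neurog3 was taken and averaged over the 5 plates. Cells of a plate share library preparation and depth, so these are descriptions with no p. A gene was called rising at a mean rho of 0.3 or more with a positive rho in every plate, and falling at -0.3 or less with a negative rho in every plate. Of 3312 genes read at 10 CPM or more in 25% of the cells, 18 rose (0.543%) and 25 fell (0.755%). The median mean rho was -0.01, and the range over all genes was -0.46 to 0.42. The size of rho was larger at E17.5 for 17 of the 18 rising and 24 of the 25 falling genes, where the Neurog3 range was also wider; rho over all genes had an SD of 0.17 at E17.5, averaged over 2 plates, and 0.11 at E15.5, averaged over 3. Plates of 1 stage alone called 150 rising and 167 falling genes at E17.5 and 4 rising and 11 falling genes at E15.5, and without EA03, where rho was weakest, the calls were 35 and 49. Total reads had a mean rho with Neurog3 of -0.05 at E17.5 and -0.13 at E15.5, the number of genes read -0.30 and -0.07, and the share of reads on Rn45s (ribosomal precursor RNA) 0.31 and 0.21. Single plates were farther apart. Total reads ran from -0.35 in EA01 to 0.04 in EA03, genes read from -0.31 in EA06 to 0.09 in EA03, and the Rn45s share from 0.05 in EA02 to 0.50 in EA01. With total reads and genes read held fixed by partial correlation, 18 genes rose and 23 fell, of which 15 and 20 were among those above. The Rn45s share was not held fixed there.

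The 5 rising genes with the highest mean rho were Tmsb4x, Gadd45a, Cbfa2t3, Hes6 and Smarcd2. Gadd45a, a growth arrest gene (mean rho 0.41), had a median of 0, 0, 9.79 and 570 CPM over the 4 rising bands at E17.5 and reached 20 CPM in 2 of 23, 3 of 16, 8 of 18 and 16 of 20 cells. At E15.5, in EA01 to EA03, it did so in 0 of 5, 3 of 15, 54 of 74 and 25 of 34 cells. Gadd45a was thus seldom read below 1000 CPM of Neurog3 at either stage. Cbfa2t3, a transcriptional corepressor (0.40), was read in 7 of 23, 4 of 16, 11 of 18 and 19 of 20 cells at E17.5, and in 1 of 5, 8 of 15, 70 of 74 and 31 of 34 in EA01 to EA03. Hes6, an inhibitor of the Notch effector Hes1 (0.39), was read in 14 of 23, 4 of 16, 13 of 18 and 18 of 20 cells at E17.5, and in 2 of 5, 7 of 15, 65 of 74 and 30 of 34 in EA01 to EA03. Smarcd2, a subunit of the SWI/SNF chromatin remodelling complex (0.39), had a median of 1409 CPM in the top band at E17.5 and 0 CPM in the lowest. Pax4, the repressor that favours beta and delta over alpha fate (0.32), showed no steady climb at E17.5, where 12 of 23, 3 of 16, 6 of 18 and 16 of 20 cells held it. In EA01 to EA03 Pax4 was already read in 12 of 15 cells at 200 to under 1000 CPM and in 28 of 34 in the top band.

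Tmsb4x, which encodes the actin-sequestering thymosin beta 4, had the highest mean rho (0.42), with medians of 206, 353, 569 and 1408 CPM over the bands at E17.5 and of 296, 819, 3114 and 2770 CPM in EA01 to EA03. Cdk4, the G1 kinase partner of D cyclins (0.36), had medians of 564, 403, 1072 and 1232 CPM at E17.5 and of 275, 1313, 1811 and 1916 CPM in EA01 to EA03. Cells with at least 3 G2 and M phase genes at 20 CPM were few in these plates, whether Neurog3 was read or not: 0 of 77 positive and 2 of 52 negative cells at E17.5, and 4 positive cells (3.12%) and 2 of 87 negative cells (2.30%) in EA01 to EA03. The duct plate held 47 such cells of 66. Cdk2ap1, a Cdk2-binding protein (0.35), the phosphatase inhibitors Ppp1r14b (0.35) and Ppp1r14a (0.32), the adhesion adaptor Bcar1 (0.36), the chloride channel homologue Ttyh2 (0.37), the mitochondrial carrier homologue Mtch1 (0.36), Hn1 (0.34), the selenoprotein Selm (0.33) and the HMG-box factor Tox3 (0.32) completed the named rising genes. Bcar1 was the rising gene with no larger rho at E17.5 (0.34, and 0.36 at E15.5).

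Upstream sequence was looked at for the 16 rising and 23 falling genes with a RefSeq promoter. Of the named genes, the rising Pax4 and the falling Cpe were not among these and are not in the counts. A CANNTG E box lay within 250 bases before the start in 13 of 16 rising genes (81.2%), in 11 of 23 falling genes (47.8%) and in 66.04% of all 27025 promoters. CAGATG or CATCTG, which is 1 kind of CANNTG, was found in 3 of 16 rising genes (Cbfa2t3, Selm and Ppp1r14a), in 0 of 23 falling genes and in 14.5% of all promoters. CACNAG or CTNGTG was found in 6 of 16 rising, 11 of 23 falling and 36.7% of all promoters. Both strands were searched, and the letters are a description and not binding sites. Cbfa2t3, Hes6 and Cdk4 (RefSeq, GRCm38.p6, 250 bases before the start in the direction of the gene, E boxes in capitals) show how unlike the E boxes of rising genes were.
Cbfa2t3 (chr8:122699110-122699359, minus strand): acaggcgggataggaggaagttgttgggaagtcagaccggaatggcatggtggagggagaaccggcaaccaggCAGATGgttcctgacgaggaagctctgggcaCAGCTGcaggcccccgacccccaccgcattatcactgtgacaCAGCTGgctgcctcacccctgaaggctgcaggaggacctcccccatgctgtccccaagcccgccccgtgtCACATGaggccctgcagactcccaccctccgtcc
Hes6 (chr1:91414039-91414288, minus strand): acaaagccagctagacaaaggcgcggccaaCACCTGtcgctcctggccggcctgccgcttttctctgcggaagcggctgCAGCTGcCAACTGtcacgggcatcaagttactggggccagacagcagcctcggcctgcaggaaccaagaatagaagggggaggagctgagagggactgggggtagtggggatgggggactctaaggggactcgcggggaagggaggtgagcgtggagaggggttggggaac
Cdk4 (chr10:127063285-127063534, plus strand): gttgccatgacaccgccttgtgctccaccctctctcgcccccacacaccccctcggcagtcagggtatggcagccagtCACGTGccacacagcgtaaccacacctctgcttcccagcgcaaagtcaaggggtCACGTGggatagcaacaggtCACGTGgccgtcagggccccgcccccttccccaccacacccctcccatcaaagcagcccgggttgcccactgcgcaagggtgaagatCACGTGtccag
Cbfa2t3 had 4 E boxes, with CAGATG as 1 of them, and Hes6 had 3, none of which was CAGATG or its reverse. Cdk4 had 4 copies of CACGTG, the letters also bound by Myc and USF factors.

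Of the 13 measured genes of the secretory granule list, 8 fell, against 0.755% of all 3312 genes. Pam, which amidates peptide hormones, had the lowest mean rho of all genes (-0.46) and was read in 20 of 23, 12 of 16, 9 of 18 and 5 of 20 cells over the rising bands at E17.5. In EA01 to EA03 Pam was read in 4 of 5, 7 of 15, 4 of 74 and 1 of 34 cells. Pcsk1n, the inhibitor of prohormone convertase 1 (-0.41), had medians of 614, 264, 0 and 0 CPM at E17.5, and it was read in 0 of 34 cells of the top band in EA01 to EA03. Scgn, the calcium sensor secretagogin (-0.42), had medians of 876, 837, 230 and 0 CPM at E17.5 and of 1295, 453, 0 and 0 CPM in EA01 to EA03. Scg3, a granule sorting receptor (-0.37), and Cpe, the carboxypeptidase that trims prohormones (-0.36), followed the same direction, but Cpe was still read in 16 of 20 cells of the top band at E17.5.

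Of the 6 measured later endocrine factors, Pax6 and Fev fell. Pax6, which maintains hormone expression (-0.39), was read in 20 of 23, 12 of 16, 10 of 18 and 5 of 20 cells at E17.5, and in 5 of 5, 10 of 15, 12 of 74 and 8 of 34 in EA01 to EA03. Fev (-0.36) was the falling gene with no larger rho at E17.5 (-0.34, and -0.37 at E15.5). Rbp4, the retinol carrier (-0.43), had medians of 805, 961, 0 and 0 CPM at E17.5 and of 2382, 340, 0 and 0 CPM in EA01 to EA03. Gch1, the first enzyme of tetrahydrobiopterin synthesis and a cofactor source for serotonin (-0.35), had medians of 1073, 901, 89.1 and 0 CPM at E17.5. Fam183b (-0.44), the aldo-keto reductase Akr1c19 (-0.43), the small GTPase Rap1b (-0.41), Dbpht2 (-0.40), the annexin Anxa4 (-0.37), the endothelin-converting enzyme Ece1 (-0.36) and the G protein subunit Gnao1 (-0.36) completed the named falling genes.

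**Figure D4:**
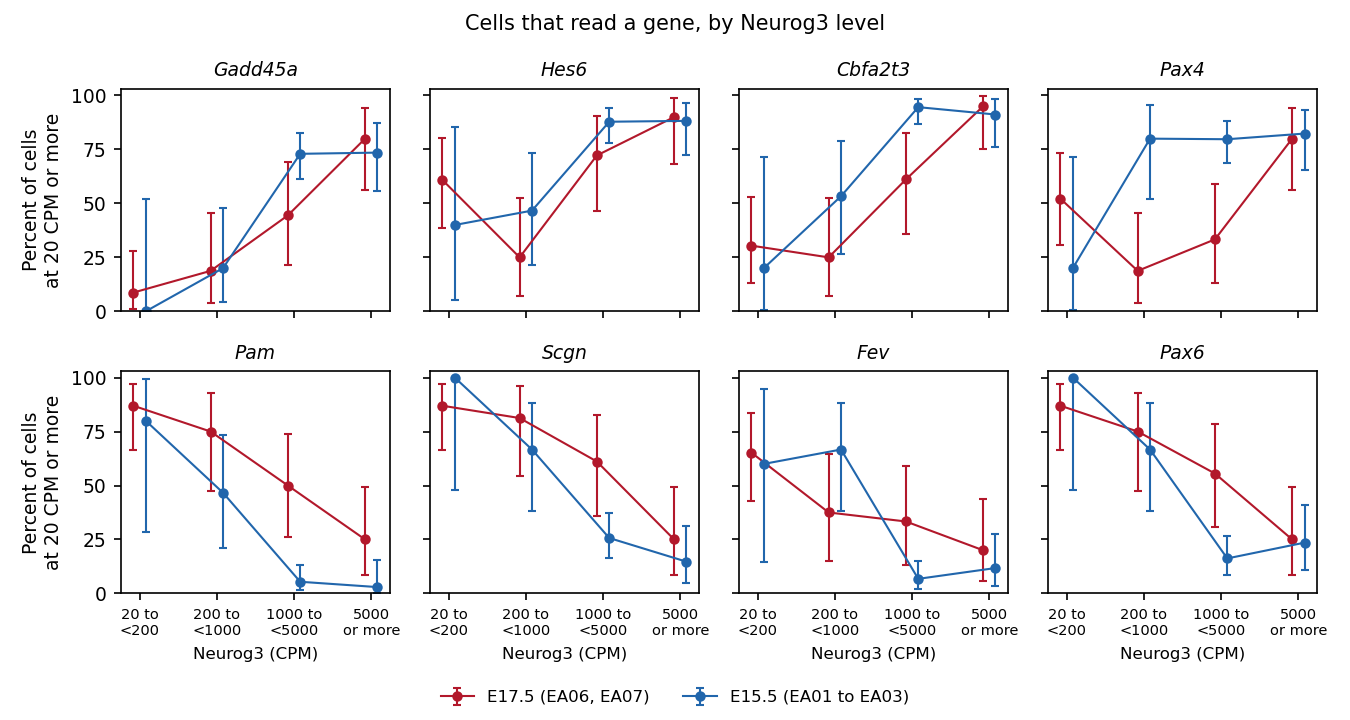
Percent of positive cells that read a gene at 20 CPM or more (vertical axis) in 4 bands of Neurog3 (horizontal axis, CPM), for 4 rising genes above and 4 falling genes below; red is E17.5 and blue is EA01 to EA03, with exact 95% intervals for counting error. Gadd45a climbs from 2 of 23 to 16 of 20 cells at E17.5, and Pam drops over the same bands to 5 of 20.

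The gene lists were then counted in the same 5 plates. Of the endocrine progenitor markers, 18 of 19 were measured, 6 rose and none fell, and the median rho was 0.27. Of early endocrine factors, 14 of 17 were measured, 3 rose (Pax4, Cbfa2t3 and Tox3) and none fell (median 0.17). Of later endocrine factors, 6 of 16 were measured, 2 fell (Pax6 and Fev) and none rose (median -0.24). Of granule genes, 13 of 22 were measured, 8 fell and none rose (median -0.30). The background for these medians is the -0.01 over all genes. For the counts it is the 0.543% of 3312 genes that rose and the 0.755% that fell. Cbfa2t3, Hes6 and Gadd45a each stand in more than 1 list. All lists, the progenitor markers among them, were chosen with earlier results of these data known, so they are no independent support. In the Notch list 3 of 20 were measured, Hes6 rose and none fell. No gene was called among the 14 measured progenitor and duct genes (median 0.01), the 10 immediate early genes (median -0.08) or the beta maturation genes, of which Abcc8 had a mean rho of -0.24. In the cytoskeleton list 1 of 8 measured genes was called (Tmsb4x), with a median of 0.16, and in the cell cycle exit list 1 of 7 (Gadd45a), with a median of 0.09. The serotonin list had Gch1 alone measured, which fell, the S phase list had Slbp alone (-0.05), the hormone list had Cck alone (0.17), and no G2 and M phase gene was measured.

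Other genes of this lineage were not called. Neurod1, a direct target, had a mean rho of 0.01 and was read in 20 of 23, 12 of 16, 15 of 18 and 15 of 20 cells over the bands at E17.5, and in 5 of 5, 15 of 15, 49 of 74 and 25 of 34 in EA01 to EA03. It was also read in 76.1% of the 205 positive cells and in 86.3% of the negative cells of the same 5 plates. Sox9, a progenitor and duct factor, had a mean rho of 0.05 and was read in 93 positive cells (45.4%) and 47 negative cells (33.8%). Mdk, which encodes the growth factor midkine, had a mean rho of 0.38 (0.69 at E17.5 and 0.17 at E15.5), and missed the call by its rho of -0.05 in EA03. Neurod2 (0.31, and 0.61 at E17.5) missed it by a rho just below 0 in EA03. Isl1, a later factor, had a negative rho in all 5 plates and missed the call by its mean of -0.29; it was not a simple mirror of Neurog3 at E17.5, with medians of 477, 1219 and 2066 CPM over the lower 3 bands and 0 CPM in the top band, where 2 of 20 cells read it.

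**Figure D5:**
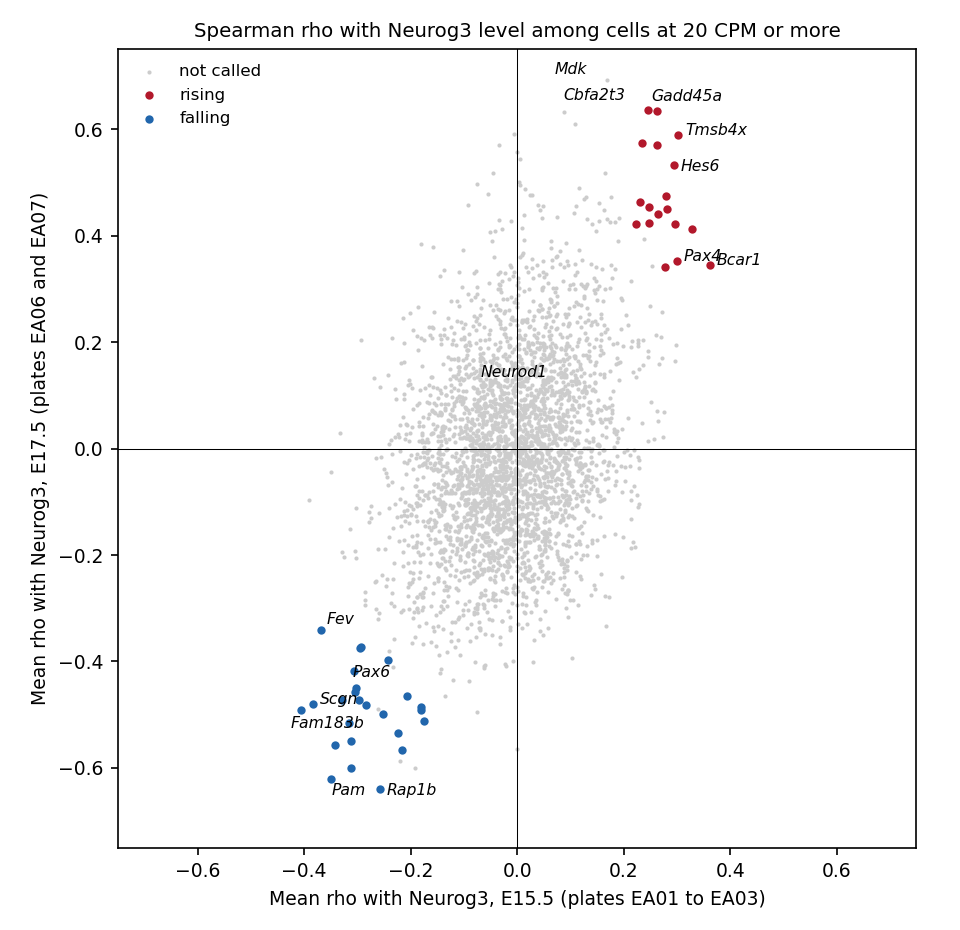
Each point is 1 of 3312 genes, placed by its mean rho with Neurog3 at E15.5 (horizontal, 3 plates) and at E17.5 (vertical, 2 plates), both on the same scale without units. Red genes were called rising and blue genes falling over all 5 plates, a choice that puts them in these corners; most red points and blue points lie farther out on the E17.5 axis, as for Gadd45a (0.63 and 0.26).

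Across all 495 cells, the genes with the pattern most like Neurog3 were ranked by Spearman's rho over 6985 genes read at 10 CPM or more in 10% of the cells. Mdk was the most alike (0.63), followed by Pax4 (0.61), Btbd17 (0.59), Gadd45a (0.58), Neurod2 (0.58), Cbfa2t3 (0.58), Hes6 (0.58) and Ppp1r14a (0.57). Their order is not firm, since the last 5 lie within 0.02 of each other. Neurod2, a helix-loop-helix factor best known from neurons, was the most restricted: 66 of 212 positive cells (31.1%) and 2 of 283 negative cells (0.707%) reached 20 CPM. Btbd17 did so in 52.8% of positive and 8.13% of negative cells, Ppp1r14a in 41.98% and 4.24%, and Pax4 in 66.98% and 16.96%. Over all 495 cells Mdk was the least restricted of these, at 85.8% of positive and 54.4% of negative cells. That place depends on the plates included. In the 5 plates used for rho within plates, Mdk was read in 85.9% of positive and 40.3% of negative cells, and Hes6 in 74.6% and 42.4%. The cells of a plate share their library, and stage, plate code and Neurog3 state go together in this ranking.

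Markers of other cell types were thin in positive cells. The summed level of 14 acinar markers had a median of 0 CPM in positive cells of both stages and reached at most 2562 CPM at E17.5, with 5 markers at 0 in every cell, and 689 CPM in EA01 to EA03, with 7 at 0. It passed 100 CPM in 7 of 23, 3 of 16, 3 of 18 and 8 of 20 cells over the rising bands at E17.5. Summed mesenchyme markers reached at most 776 CPM at E17.5 and 2.05 CPM in EA01 to EA03, endothelial markers 0 and 519 CPM, immune markers 347 and 17.02 CPM, erythroid markers 44.2 and 216 CPM, and neural crest markers 47.8 and 241 CPM. None of these genes was read widely enough to be among the 3312, and their part in the results was not tested.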

How the data were processed

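The deposited table holds unnormalized read counts, as whole numbers, for 23002 genes in 495 cells. The submitters' processing notes name FastQC, STAR and HTSeq with the mm10 build; the sources used here give no versions. Without molecular identifiers a PCR copy is counted like any other read, so intervals and floors cover counting error only. Cells held 200152 to 1182889 reads (median 533363); all were kept and doublets were not called. Counts were divided by each cell's total over all rows to give CPM. Groups follow the labels' plate code and stage; in the table itself the columns of EA06 and EA07 also carry the knock-in word, against the labels.

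Neurog3 bands, exact Clopper-Pearson shares and within-plate Spearman rho were computed with Python 3.11.15, pandas 2.3.3 and scipy 1.17.1, and figures with matplotlib 3.10.9. The rho calls were also run on simulated data, which gives no error rate for the calls in these cells. edgeR 4.0.16 (TMM) and DESeq2 1.42.0 (poscounts) in R 4.3.3 gave size factors for alternatives only. The gene, the 14 pathway and 6 cell type lists and all rules were chosen with earlier results of these data known. Named genes were Neurog3, the 15 called genes with the highest and the 15 with the lowest mean rho, from each list the 3 measured members (or fewer) farthest from a rho of 0, the 8 genes most like Neurog3 over all cells, the 6 hormones, Fev, Pax4, Neurod1 and Sox9; Rik, Gm, ribosomal, mitochondrial, reporter, Xist and Y-linked genes were skipped, and Fam241b, Neurog1 and Neurog2 were added as overlapping or related genes. A gene that this rule also names is not reported here.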

Additional observations from a re-analysis of the deposited data

How the results depend on the processing

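Of the 18 rising and 25 falling genes, every one measured under an alternative kept its sign of mean rho there, which the call rule itself fixes where 1 plate or 1 stage is left out. A changed gene filter leaves each rho as it was, so the sign is fixed there as well. No paired analysis was possible because the labels give no replicate numbers or animals and no test was run. Of cells at E17.5, 45.7% were positive at a threshold of 100 CPM. Totals without Rn45s gave medians of 4833 CPM in positive cells of the Neurog3 code and 4506 CPM in those of the endocrine code. Leaving out 1 plate moved the endocrine share of positive cells between 8.24% (without EA02) and 59.7% (without EA05) and its median between 2170 CPM (without EA02) and 3756 CPM (without EA05). Positive cells with a hormone were 23.1% with hormones at 100 CPM, and 7.26% to 14.9% with 1 plate left out (7.26% without EA06, 14.9% without EA03). Rising genes numbered 29 by Pearson's r on log2(CPM + 20). With plates not separated 45 genes rose and 65 fell. Without cells with a hormone at 1000 CPM or more, 16 genes rose and 20 fell. Only 14 of the 18 rising and 13 of the 25 falling genes were called again there, and 21 of the 25 falling genes were still measured. Falling genes numbered 13 among cells at 100 CPM or more, 41 with no gene filter and 9 with 10 CPM in 50% of cells. Leaving out 1 plate gave 16 to 35 rising and 17 to 49 falling genes, the highest without EA03. After the data were seen, 1 stage alone was added, with 4 rising and 11 falling genes at E15.5 and 150 and 167 at E17.5. Depth limits the weakest band, where the lowest positive cell by reads held 12.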
